A study of Mus musculus with 8 samples.

Results

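The genes described here encode the proteins that dock, prime and fuse synaptic vesicles: Snap25, Stx1a, Vamp1, Vamp2, Syt1, Syn1, Syn2 and Sv2b. They were chosen by name, with earlier results of these data known. Every probe set that the platform annotation assigns to exactly 1 of them was taken. This gave 21 of 45037 probe sets for 8 of 18193 named genes. A further probe set that names Vamp1 together with another gene was left out. Hippocampal RNA of male 3 × Tg-AD mice, which express amyloid precursor protein Swe, tau P301L and presenilin 1 M146V, was measured on 4 arrays of the rosmarinic acid (RA) group and 4 arrays of the control group. Both groups carried these alleles and ate an AIN-93G diet for 8 months until 10 months of age, with 0.5% RA in the RA group and no RA in the control group. There was no group without the transgenes. The methods name 4 mice of average weight per group but describe the RNA as pooled, so p-values here measure only the spread between these arrays, which may be technical, and their number limits the precision.

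A nerve terminal releases transmitter when a vesicle SNARE protein, synaptobrevin (Vamp1 or Vamp2), zips together with syntaxin (Stx1a) and Snap25 of the plasma membrane into a helical bundle that pulls the membranes into contact. Synaptotagmin (Syt1) is the calcium sensor that couples this step to the action potential. Synapsins (Syn1, Syn2) hold vesicles in the reserve pool, and Sv2b is a glycoprotein of the vesicle membrane. In the hippocampus these transcripts are made in neurons, and their proteins are carried along axons to terminals that can lie elsewhere.

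Values are on the log2 scale and were made by the authors with FARMS, which summarises the probes of a set by factor analysis. Where the probes of a set do not vary together over the arrays, FARMS returns almost the same number for every array, so a probe set with an SD of at most 0.01 over the 8 arrays was marked as unmeasured. Of the 45037 probe sets 3758 were measured (8.34%), and of the 21 of the vesicle fusion genes 10 were. Both probe sets of Snap25 and of Stx1a, 2 of 4 of Syt1, 1 of 2 each of Vamp1, Vamp2 and Sv2b and 1 of 6 of Syn2 were measured. The only probe set of Syn1 was unmeasured. Among the 11 unmeasured probe sets the largest SD was 0.00032. The smallest among the measured ones was 0.020, of Sv2b, the nearest to the limit, while the others ran from 0.12 to 0.34. An unmeasured probe set gives no information on a difference, even where its value is high, as in the brightest probe sets of Syt1 (11.83 on all arrays), Syn2 (10.76) and Vamp2 (10.60 to 10.61). The other 8, among them Syn1 at 9.99 on all arrays, lay between 5.69 and 10.39.

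FARMS gives no call of presence, so markers of hippocampal neurons are given by their log2 values. Neurod6, a transcription factor of pyramidal neurons, lay at 7.92 to 9.25 in RA arrays and at 8.24 to 9.82 in control arrays. Prox1, a transcription factor of granule cells, lay at 6.19 to 7.22 in RA arrays and at 6.14 to 7.36 in control arrays. Array medians were 5.83 to 5.84 in RA arrays and 5.83 in control arrays, and arrays correlated across probe sets at 0.989 to 0.998. The choroid plexus list was uneven, with a mean log2 value of its 10 measured markers between 5.740 and 7.985 in RA arrays and between 5.759 and 8.191 in control arrays, and 9 of the 10 were called higher. In 73.1% of all measured probe sets the RA mean was above the control mean, and their median log2 fold change was 0.07.

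Calls come from the rank product, the test of the methods, which ranks probe sets by each of the 16 RA-minus-control array differences and calls a probe set where the estimated proportion of false positives (pfp) is under 0.05. Over all probe sets 0.575% were called lower and 0.997% higher in the RA group. Every called probe set was a measured one, and of the measured probe sets 6.89% were called lower and 11.9% higher. Unmeasured probe sets, almost constant over the arrays, can hardly reach the ends of these rankings, so calls fall on measured ones by design. The pfp treats all probe sets as alike in spread, so it is not a calibrated error rate for a measured one. limma, whose test takes in the spread of the individual probe set, gave the standard errors and adjusted p-values below and called 0% of all probe sets, with 10.1% (9.66% of the measured ones) at an unadjusted p under 0.05. Of the 21 probe sets of the vesicle fusion genes, 2 were called lower and 0 higher by the rank product, and limma called 0, with 2 at an unadjusted p under 0.05 (Snap25 1416828_at and the unmeasured Syn2 1449030_at). The pair called lower are both probe sets of Snap25. No other member was called.

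Snap25 was lower in the RA group on both of its probe sets. On probe set 1416828_at the log2 values were 11.49, 11.37, 11.60 and 11.40 in RA arrays 1 to 4, against 11.67, 11.72, 11.70 and 11.62 in control arrays 1 to 4. Every RA array lay below every control array, though RA 3 lay close to control 4, the lowest control. The mean was 11.47 ± 0.10 (SD, n = 4) in the RA group and 11.68 ± 0.04 (SD, n = 4) in the control group. The log2 fold change was thus -0.21 (standard error 0.05, 95% interval -0.34 to -0.08), which is 0.863 times the control level. An exact permutation test of this single probe set gave a 2-sided p of 0.0286, the smallest that 4 arrays against 4 can give (2 of 70 splits), and 0.490 after adjustment over all probe sets. The adjusted p from limma was 0.341 and the pfp was 0.0087.

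Probe set 1447763_at of Snap25, a dimmer one with more spread, showed log2 values of 6.39, 6.41, 6.67 and 6.29 in RA arrays 1 to 4, against 6.52, 7.22, 6.82 and 6.69 in control arrays 1 to 4. The groups overlapped here, because RA 3 lay above control 1, and control 2 stood above all other arrays. The log2 fold change was -0.37 (standard error 0.16, 95% interval -0.76 to 0.01, adjusted p = 0.506 from limma, pfp 0.0016), with an exact permutation p of 0.0571 (2-sided) and 0.555 after adjustment. The array that was highest (control 2) was the same on both probe sets, and the arrays fell on the same side of their mean on both in 7 of 8 arrays. RA 3 was the highest RA array on both.

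The calls of Snap25 depended on what it was ranked against. Ranked among the 3758 measured probe sets alone, neither probe set was called (pfp 0.953 for 1416828_at and 0.347 for 1447763_at). Without control 2 both calls were lost as well (log2 fold changes of -0.20 and -0.24, pfp 0.0573 and 0.0684), while without any other single array both stayed called, with log2 fold changes between -0.26 and -0.18 and between -0.47 and -0.32. Of the 10 measured probe sets of the vesicle fusion genes 1 had groups that did not overlap, lower in RA, where 2.87% of all measured probe sets had such groups in that direction and 2.71% in the other. In whole hippocampus, fewer cells that carry a transcript and less of it per cell cannot be told apart. Over the 8 measured of 10 general neuronal markers, the mean log2 value was 9.997 to 10.077 in RA arrays and 9.875 to 10.051 in control arrays, 1 marker was called higher and 0 were called lower. Over the 5 measured pyramidal cell markers it was 8.454 to 8.960 in RA arrays and 8.595 to 9.071 in control arrays, and 1 was called lower. The part of cell type proportions in the Snap25 values was not tested.

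**Figure D1:**
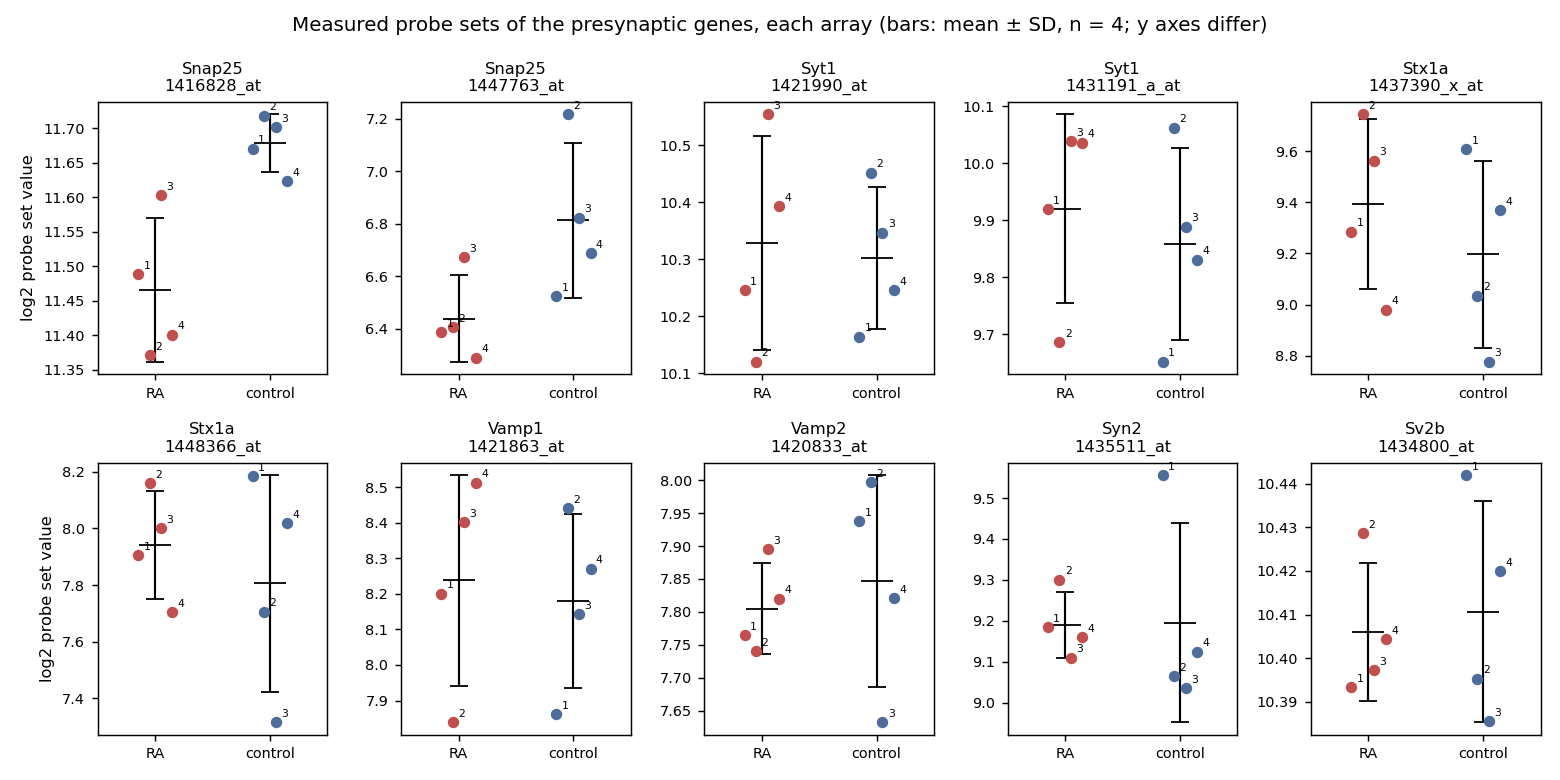
Log2 values (y axis, a different range in each panel) of the 10 measured probe sets in the 4 RA arrays (left) and the 4 control arrays (right), with array numbers beside the points and bars for the mean ± SD. Only on Snap25 1416828_at do all RA arrays (11.37 to 11.60) lie below all control arrays (11.62 to 11.72).

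None of the SNARE partners of Snap25 was called. Stx1a, the plasma membrane syntaxin, had log2 values of 9.28, 9.74, 9.56 and 8.98 in RA arrays 1 to 4, against 9.61, 9.04, 8.78 and 9.37 in control arrays 1 to 4, on probe set 1437390_x_at. By its x_at suffix this probe set may also bind related transcripts. The groups overlapped, with RA 2 highest and control 3 lowest. The log2 fold change was 0.20 (standard error 0.24, adjusted p = 0.804 from limma), and the exact permutation p was 0.486 (2-sided). The other probe set, 1448366_at, gave 7.90, 8.16, 8.00 and 7.70 in RA arrays 1 to 4, against 8.18, 7.71, 7.31 and 8.02 in control arrays 1 to 4. Control 1 was highest and control 3 lowest, and the log2 fold change was 0.14 (standard error 0.20, adjusted p = 0.845 from limma). Both probe sets placed 7 of 8 arrays on the same side of their means. Without control 1, 1437390_x_at was called higher (log2 fold change 0.33, pfp 0.0256).

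The synaptobrevins, the SNARE proteins of the vesicle itself, were each measured by 1 probe set. Vamp1 had log2 values of 8.20, 7.84, 8.40 and 8.51 in RA arrays 1 to 4, against 7.86, 8.44, 8.14 and 8.27 in control arrays 1 to 4. RA 2 and control 1 were the low arrays, and the groups overlapped over nearly their whole range. The log2 fold change was 0.06 (standard error 0.18, 95% interval -0.38 to 0.50). Vamp2, the main synaptobrevin of forebrain synapses, had 7.76, 7.74, 7.89 and 7.82 in RA arrays 1 to 4, against 7.94, 8.00, 7.63 and 7.82 in control arrays 1 to 4. The RA arrays lay inside the range of the control arrays, and the log2 fold change was -0.04 (standard error 0.08, 95% interval -0.24 to 0.16). The adjusted p-values from limma were 0.933 for Vamp1 and 0.889 for Vamp2.

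The calcium sensor Syt1 was measured by probe sets 1421990_at and 1431191_a_at. On 1421990_at the log2 values were 10.24, 10.12, 10.55 and 10.39 in RA arrays 1 to 4, against 10.16, 10.45, 10.35 and 10.24 in control arrays 1 to 4. On 1431191_a_at they were 9.92, 9.69, 10.04 and 10.04 in RA arrays 1 to 4, against 9.65, 10.06, 9.89 and 9.83 in control arrays 1 to 4. RA 2 and control 1 were the low arrays on both probe sets and RA 3 and control 2 were high on both. The groups overlapped on both, with log2 fold changes of 0.03 (standard error 0.11, 95% interval -0.23 to 0.29) and 0.06 (standard error 0.11, 95% interval -0.21 to 0.33). Adjusted p-values from limma were 0.951 and 0.879.

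Of the synapsins, which tether vesicles to the actin cytoskeleton, only Syn2 gave a measured probe set, 1435511_at. Its log2 values were 9.18, 9.30, 9.11 and 9.16 in RA arrays 1 to 4, against 9.56, 9.06, 9.03 and 9.12 in control arrays 1 to 4. Control 1 stood above all others, control 2 and control 3 lay below all RA arrays, and control 4 lay among them. The log2 fold change was -0.01 (standard error 0.12, adjusted p = 0.991 from limma), and 0.11 without control 1. Sv2b, a vesicle glycoprotein related to membrane transporters, had 10.39, 10.43, 10.40 and 10.40 in RA arrays 1 to 4, against 10.44, 10.40, 10.39 and 10.42 in control arrays 1 to 4. This is a narrow spread for a measured probe set, and the log2 fold change was -0.005 (standard error 0.014, 95% interval -0.039 to 0.030).

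The 10 measured probe sets thus split evenly by direction, 5 with a higher and 5 with a lower RA mean, and gave a median log2 fold change of 0.01, against 0.07 over all measured probe sets. The 95% intervals of the 8 probe sets other than those of Snap25 all included 0. The widest, of Stx1a 1437390_x_at, ran from -0.37 to 0.77.

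**Figure D2:**
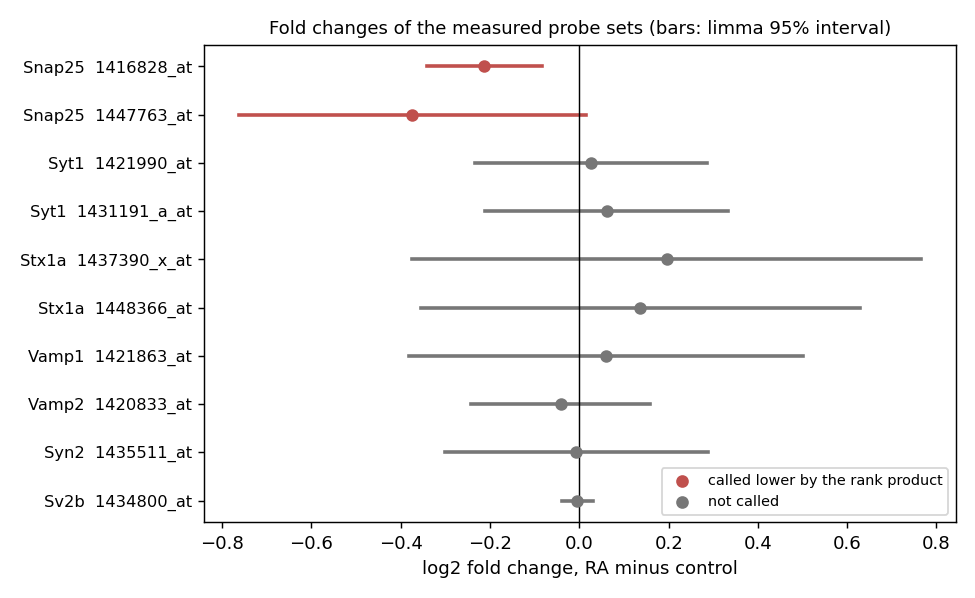
Log2 fold changes (RA minus control, x axis) of the 10 measured probe sets, with bars for the 95% interval from limma. Snap25 1416828_at (-0.21) has the only interval that leaves out 0, and red marks the probe sets called lower by the rank product.

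Several arrays stood out in more than 1 of these genes. Control 3 was the highest or the lowest array in 5 of the 10 measured probe sets, and control 1, control 2 and RA 2 were so in 4 each. RA 2 and control 1, a pair picked after the values were seen, deviated alike in several genes, with Syt1 and Vamp1 low and Stx1a, Syn2 and Sv2b high relative to each probe set's mean over the 8 arrays. For Vamp1 the deviation was -0.37 in RA 2 and -0.35 in control 1, and for Stx1a 1437390_x_at it was 0.45 in RA 2 and 0.31 in control 1. Among probe sets of different genes with an SD over 0.1, Syt1 1431191_a_at and Vamp1 followed each other most closely. The root mean square difference between their deviations over the 8 arrays was 0.1062. They lay on the same side of their means in 6 of 8. The SD limit left out Sv2b, whose difference from Vamp2 was slightly smaller (0.1059). Sv2b lay on the same side as Stx1a 1437390_x_at, and as Syn2, in 7 of 8. Syt1 1421990_at and Stx1a 1448366_at lay on opposite sides in 7 of 8, and the other pairs of Syt1 and Stx1a probe sets in 5 to 6. Sv2b lay opposite both Syt1 probe sets in 7 of 8. Control 3 was the lowest array for Stx1a (on both probe sets), Vamp2, Syn2 and Sv2b.

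RA 2 and control 1 also stood apart in marker lists of other cells. The mean log2 value of the 9 measured oligodendrocyte markers was 9.223, 8.240, 9.097 and 9.395 in RA arrays 1 to 4, against 8.374, 9.442, 9.304 and 8.677 in control arrays 1 to 4. RA 2 and control 1 were lowest in their groups, as they were over the 7 measured granule cell markers (7.198 in RA 2 and 7.686 to 7.834 in the other RA arrays, against 7.233 in control 1 and 7.732 to 7.929 in the other control arrays). Over the 4 measured of 7 striatal markers on the array they were highest, at 7.654 in RA 2 and 7.836 in control 1, against 7.031 to 7.337 and 6.880 to 7.526 in the other RA and control arrays. The part of these markers in the values of the vesicle fusion genes was not tested. Without control 1 and RA 2, a comparison added after the values were seen, both Snap25 probe sets were still called lower (log2 fold changes of -0.18 and -0.46, pfp 0.0401 and 0.0040).

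**Figure D3:**
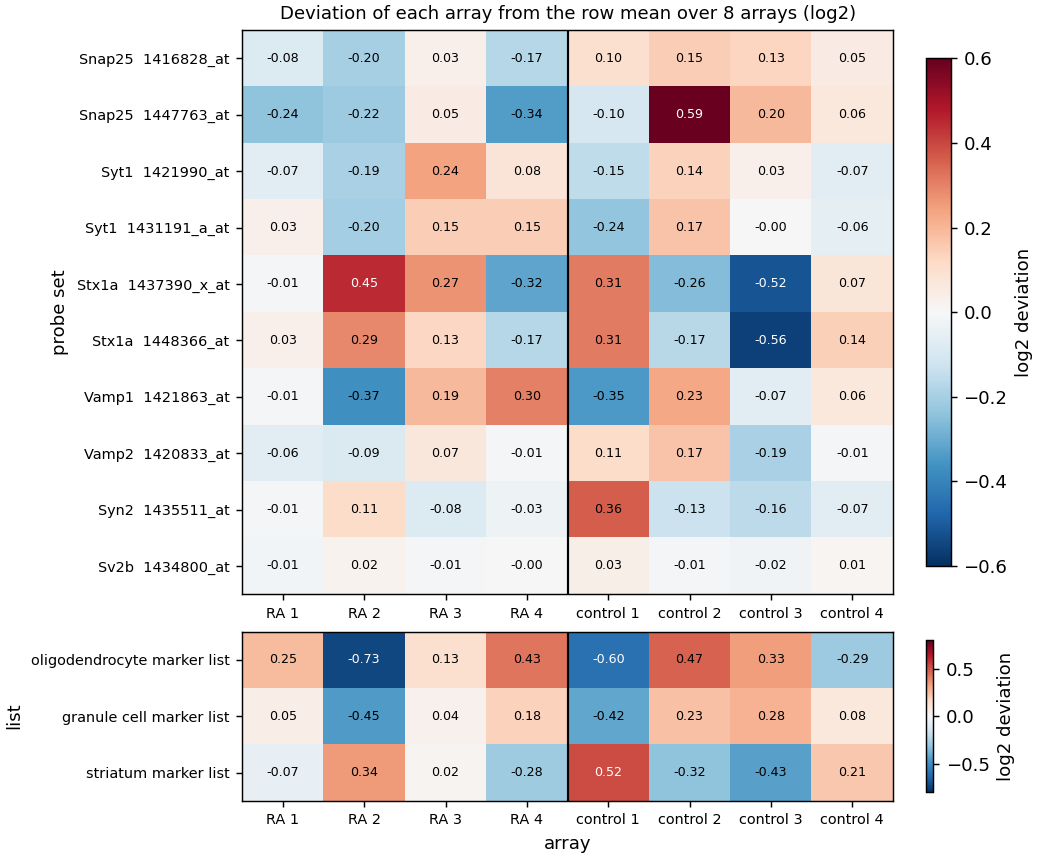
Deviation of each array from its row's mean over the 8 arrays (log2, colour and printed value), for the 10 measured probe sets (top) and for the means of 3 marker lists (bottom), with RA arrays left of the line and control arrays right. RA 2 and control 1 share low Vamp1 (-0.37 and -0.35), high Stx1a (0.45 and 0.31 on 1437390_x_at) and low oligodendrocyte markers.

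Promoters of Syt1, Vamp1 and Stx1a are shown because Syt1 and Vamp1 ran alike over most arrays and Stx1a ran against Syt1, a choice made after their values were seen. They span 250 bases before to 50 after the annotated start (RefSeq, GRCm38.p6, printed 5′ to 3′ on the strand of the gene). The table holds promoters of 6 of the 8 genes, with 2 for Syt1, of which the upstream one is printed. Sv2b, which lay opposite both Syt1 probe sets in 7 of 8 arrays, has 4, none of them printed. Capitals mark the GC box GGGCGG and the CCAAT box CCAAT on either strand.
Syt1, chr10:109010926-109011225, minus strand: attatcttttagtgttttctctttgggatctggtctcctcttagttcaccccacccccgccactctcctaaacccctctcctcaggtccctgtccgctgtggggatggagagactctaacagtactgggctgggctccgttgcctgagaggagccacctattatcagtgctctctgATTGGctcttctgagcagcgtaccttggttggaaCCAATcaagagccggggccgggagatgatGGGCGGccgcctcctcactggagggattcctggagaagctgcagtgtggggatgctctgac
Vamp1, chr6:125215331-125215630, plus strand: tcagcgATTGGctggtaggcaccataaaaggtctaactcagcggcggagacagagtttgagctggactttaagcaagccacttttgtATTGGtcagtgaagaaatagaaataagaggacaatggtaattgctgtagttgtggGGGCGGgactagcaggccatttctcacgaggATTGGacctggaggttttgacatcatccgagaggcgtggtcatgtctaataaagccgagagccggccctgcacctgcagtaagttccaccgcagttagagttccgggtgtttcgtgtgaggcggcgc
Stx1a, chr5:135023232-135023531, plus strand: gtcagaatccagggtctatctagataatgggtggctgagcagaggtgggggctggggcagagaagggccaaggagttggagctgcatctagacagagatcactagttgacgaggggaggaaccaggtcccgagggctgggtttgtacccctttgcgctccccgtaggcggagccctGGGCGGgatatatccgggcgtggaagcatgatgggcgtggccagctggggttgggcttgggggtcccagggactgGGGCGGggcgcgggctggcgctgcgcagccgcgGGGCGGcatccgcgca
The printed promoters of Syt1 and Vamp1 each held 1 GC box, with 2 CCAAT boxes in Syt1 and 3 in Vamp1. That of Stx1a held 3 GC boxes and 0 CCAAT boxes. The other Syt1 promoter, which is not printed, held 0 GC boxes and 0 CCAAT boxes. Of 32851 promoters of the same length, 35.7% held a GC box and 37.4% a CCAAT box, so either is common. Both strands were also searched for the cAMP response element TGACGTCA (1.79% of promoters) and its part TGACGT (7.51%), for TTCAGCACC (0.371%), for TATAAA (13.6%) and for CACGTG (7.15%), none of which was in these windows. A match is a string of letters, and nothing about binding was measured.

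Around these genes, 105 others of the release machinery were listed by role, of which 99 are named by the array and 39 were measured on the probe set with the highest mean. By the rank product 2 were called lower and 4 higher, a share of the measured genes near that of all measured probe sets (6.89% lower and 11.9% higher), and limma called none of them. Of the 39 measured genes 10 had a lower and 29 a higher mean in the RA group, and the median log2 fold change was 0.09, against 26.9% lower, 73.1% higher and a median of 0.07 over all measured probe sets. The list was therefore close to all measured probe sets in direction.

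Among vesicle membrane proteins Synpr, or synaptoporin, a relative of synaptophysin that is abundant in mossy fibre terminals, was lower in the RA group. Its log2 values were 8.60, 8.15, 8.73 and 8.31 in RA arrays 1 to 4, against 8.94, 8.91, 9.01 and 8.85 in control arrays 1 to 4. Every RA array lay below every control array, with the control arrays close together. The log2 fold change was -0.48 (standard error 0.13, adjusted p = 0.366 from limma, pfp 0.00026), with an exact permutation p of 0.0286 (2-sided). This call held without any single array (log2 fold changes of -0.57 to -0.38) and was lost among the measured probe sets alone (pfp 0.167). The other 3 measured genes of this role had higher means in the RA group and were not called.

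Of 8 measured synaptotagmin and Doc2 genes besides Syt1, Syt16 was called lower (log2 fold change -0.20, standard error 0.09) and Syt9, a fast calcium sensor, higher (0.26, standard error 0.22). Syt16 had log2 values of 7.38, 7.34, 7.58 and 7.19 in RA arrays 1 to 4, against 7.61, 7.63, 7.43 and 7.65 in control arrays 1 to 4. Control 3 was the only control array among the RA arrays. Its call was lost without control 2 (-0.19, pfp 0.0783) or control 4 (-0.18, pfp 0.0859). Syt9 ran from 6.08 to 6.72 in RA arrays and from 5.77 to 6.65 in control arrays. The call of Syt9 held without control 1 or control 4 and was lost without any one of the other arrays (0.12 to 0.39).

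Of the SNARE proteins other than the members, Snap47 was the only measured one, with 10.52 to 10.65 in RA arrays and 10.30 to 10.61 in control arrays (log2 fold change 0.13, standard error 0.07, not called). Without control 1 it was called higher (0.18, pfp 0.0421). Neither Cplx3, a complexin that clamps SNARE complexes, nor Unc13c, a Munc13 protein that primes vesicles, was called. Cplx3 lay at 6.24 to 6.62 in RA arrays and 5.12 to 6.52 in control arrays, where control 3 was lowest by far. Unc13c lay at 6.65 to 7.40 in RA arrays and 6.09 to 7.26 in control arrays, and without control 1 it was called higher (0.30, pfp 0.0354). Of the SNARE disassembly genes, 0 of 4 were measured on the probe set used. Another probe set was measured for 3 of them, and none was called. The 1 synapsin outside the members was not measured on any probe set.

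At the active zone, the scaffold gene Rims3 was called higher, with log2 values of 7.20 to 7.39 in RA arrays and 6.70 to 7.21 in control arrays (log2 fold change 0.27, standard error 0.12, adjusted p = 0.515 from limma). The vesicular glutamate transporter Slc17a6, which is typical of thalamic and other subcortical neurons, was also called higher, at 7.35 to 7.96 in RA arrays and 6.46 to 7.74 in control arrays (0.38, standard error 0.29, and 0.14 without control 3). The whole thalamic marker list, which holds Slc17a6, had 6 of 11 genes called higher, with a mean over 10 measured markers of 6.735 to 7.359 in RA arrays and 6.624 to 7.071 in control arrays, and its part in the Slc17a6 values was not tested. The calcium channel subunit Cacna2d2 was called higher (0.22, standard error 0.14), at 7.24 to 7.55 in RA arrays and 6.90 to 7.49 in control arrays. With any single RA array left out, Rims3, Slc17a6 and Cacna2d2 were no longer called (log2 fold changes of 0.16 to 0.46, pfp 0.0757 to 0.228). All 3 calls were also lost without control 3, those of Rims3 and Cacna2d2 without control 2, and that of Cacna2d2 without control 4. Of the vesicle recycling genes, Dnm3, a dynamin (0.11, standard error 0.12), and Amph, or amphiphysin (-0.10, standard error 0.10), were not called.

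**Figure D4:**
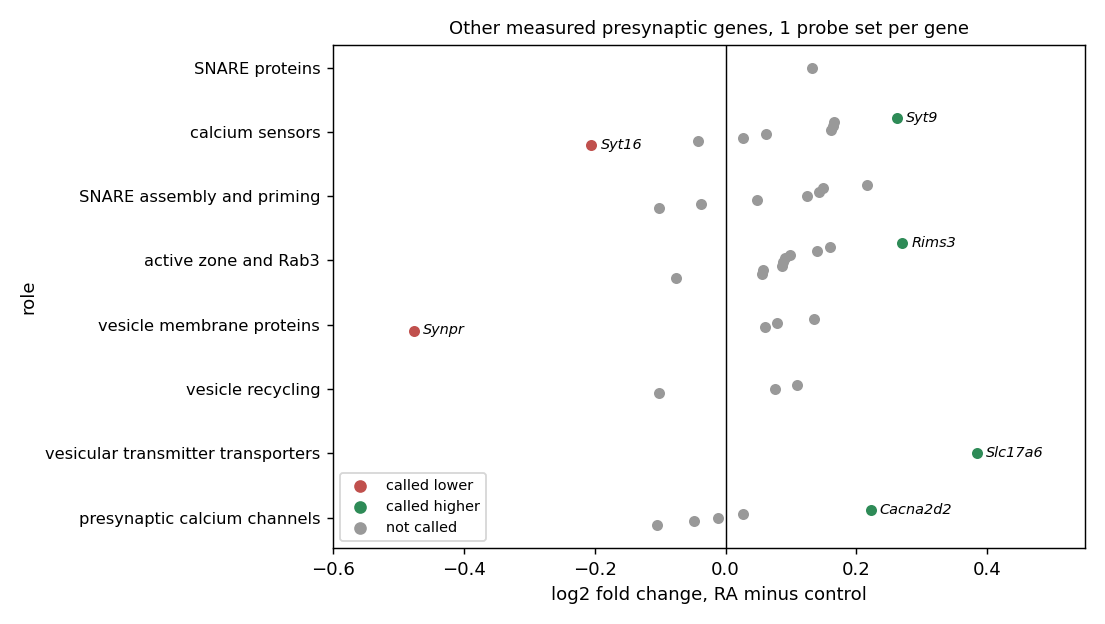
Log2 fold changes (RA minus control, x axis) of the 39 other measured presynaptic genes, grouped by role, 1 probe set per gene, with called genes in colour. Synpr (-0.48) and Syt16 (-0.20) were called lower, and Syt9, Rims3, Slc17a6 and Cacna2d2 higher. The calcium sensor row holds synaptotagmin and Doc2 genes by family, whether or not each binds calcium.

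The genes whose values ran most like Snap25 1447763_at were found from the root mean square difference between deviations over the 8 arrays, among single-gene probe sets outside the members. Snap25 itself deviated from its mean by 0.28 on this measure. The closest were Ywhaz, a 14-3-3 protein (0.102), Tm9sf2 (0.107), Rad21, a cohesin subunit (0.113), the septin gene Septin7 (0.113) and Commd3 (0.113). Ywhaz had log2 values of 8.03, 7.88, 8.30 and 7.68 in RA arrays 1 to 4, against 8.06, 8.64, 8.51 and 8.22 in control arrays 1 to 4. As with Snap25 1447763_at, RA 4 was lowest and control 2 highest in Ywhaz. The log2 fold changes of these genes ran from -0.42 for Rad21 to -0.27 for Commd3, and since likeness to Snap25 chose them, their being lower is a description only.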

How the data were processed

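Hippocampal RNA from 4 RA and 4 control arrays (Affymetrix mouse GeneChips) was compared, grouped by sample titles. The deposited log2 values are summaries that the authors made with FARMS in R, and how arrays were scaled to each other was not given in these sources. The scanner files were not used, and no scan batch was given. After 64 manufacturer control probe sets were left out, 34945 probe sets named 1 gene, of which 34741 took the RefSeq name of GRCm38.p6 by gene number and 204 kept the listed symbol.

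The rank product (100 permutations within arrays, threshold 0.05) was written in R 4.3.3 and run on all 45037 probe sets, as was limma 3.58.1 with Benjamini-Hochberg adjustment. Exact permutation tests used all 70 splits. Both fits were run on simulated data with added changes. A limit on false calls was set only for the rank product with equal spread in all probe sets. These data do not have equal spread, so the pfp is not a calibrated error rate here. The members and lists were chosen with earlier results of these data known. The genes named are all members, up to 3 called genes of each role (otherwise the 2 measured genes with the highest SD) and 5 genes most like Snap25. Neurod6 and Prox1 were named as markers outside these rules. Alternatives covered scaling, filters, threshold, statistic, block, weights, moderation, the methods' t-test, probe set choice and each array left out. The shared array numbers did not pair the arrays.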

Additional observations from a re-analysis of the deposited data

Results flagged for a closer look

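In a few cases 1 array stood far from the other 3 of its group. The test of the gap against the group's range flagged 4 of 52 groups, where chance flags about 1 in 20. Some genes, Cplx3 among them, were named for a high SD, so that rate does not apply to them. Syn2 1435511_at was at 9.56 in control 1 and at 9.03 to 9.12 in the other control arrays. Syt16 was at 7.43 in control 3, while the other control arrays lay at 7.61 to 7.65. Cplx3 was flagged in both groups, at 6.62 in RA 3, with 6.24 to 6.30 in the other RA arrays, and at 5.12 in control 3, with 6.44 to 6.52 in the other control arrays.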

How the results depend on the processing

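The count of 2 Snap25 probe sets called lower stayed at 2 with quantile normalization, with array medians subtracted, with a pfp under 0.01, with the filter on low means, with the replicate block and without control 1 and RA 2 together. It was 1 by the rank sum and 0 among measured probe sets alone. Without single arrays it ran from 0 to 2 (0 without control 2), and the count called higher from 0 to 1 (1 without control 1). The count with groups that do not overlap, lower in RA, ran from 1 to 2 without single arrays and was 2 without control 1 and RA 2. limma called 0 members under every alternative but the scalings, where it called 5 after quantile normalization and 12 after subtraction of array medians. Of these calls 4 and 11 were unmeasured probe sets, whose nearly constant values the scaling shifts (median log2 fold change over all probe sets -0.0026 and -0.0038). The other was Snap25 1416828_at (adjusted p = 0.0118 and 0.0056 from limma). Over all 45037 probe sets limma then called 28543 and 41443. Adjustment runs over all of these, so the 2 adjusted p-values of Snap25 cannot be set beside the 0.341 of the fit reported. Its log2 fold change stayed at -0.21 and -0.22 (standard error 0.05 in both). The methods' t-test gave 1 measured member probe set under its threshold, and 0 of all probe sets after adjustment, with 4095 under the threshold unadjusted.

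Of the other presynaptic genes, 2 were called lower in the fit reported and 1 with a pfp under 0.01, by the rank sum, with the replicate block or without control 1 and RA 2, and 0 among measured probe sets alone. Without single arrays 1 to 2 were lower. The 4 called higher became 0 with a pfp under 0.01, by the rank sum, among measured probe sets alone, with the filter on low means, with the replicate block and without control 1 and RA 2, and without single arrays 0 to 12 were higher (12 without control 1). Over all probe sets 259 were called lower and 449 higher in the fit reported, but 155 and 29 with a pfp under 0.01, 138 and 109 by the rank sum, 17 and 2 among measured probe sets alone, 189 and 52 with the filter on low means, 209 and 73 with the replicate block, and 238 and 51 without control 1 and RA 2. Without single arrays these counts ran between 138 and 313 lower and between 22 and 968 higher, with 968 higher without control 1 and 22 to 46 without any 1 RA array. The cause was not tested.

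The log2 fold changes that turned in sign were of genes not called in the fit reported, of which Unc13c was called higher without control 1 (0.30, pfp 0.0354). Vamp2 was at 0.0099 and Syn2 at 0.077 without control 1 and RA 2, and with array weights Syt1 1421990_at was at -0.014 and Syn2 at 0.014. Without single arrays the range was -0.049 to 0.096 for Syt1 1421990_at, -0.0069 to 0.14 for Syt1 1431191_a_at, -0.027 to 0.26 for Stx1a 1448366_at, -0.047 to 0.19 for Vamp1, -0.11 to 0.0079 for Vamp2, -0.060 to 0.11 for Syn2, -0.013 to 0.0057 for Sv2b, -0.12 to 0.35 for Cplx3 and -0.090 to 0.30 for Unc13c. Array numbers are shared by the groups, but nothing in the labels pairs them. Deviations of same-numbered arrays correlated at -0.39 to 0.45, and RA 2 correlated best with control 1 (0.74). With the replicate block, limma gave Snap25 1416828_at an adjusted p of 0.564.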
